A study of Mus musculus with 48 samples.

Results

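The epidermal differentiation complex is a cluster of genes on mouse chromosome 3 that build and regulate the outer layer of stratified skin. It was followed here through 45 ATAC-seq peaks of the authors' merged list, out of 114043 in all, whose centres lie on chromosome 3 between 92 and 94 Mb (build mm9). ATAC-seq measures open chromatin from the places where the Tn5 transposase can insert adapters into DNA. The stretch was chosen by its measured change with Nfib amplification, as the pair of windows most lowered in that comparison. Values of that comparison are therefore given as a description, and nothing is supported with them. The flanks from 89 to 92 Mb (183 peaks) and from 94 to 97 Mb (164 peaks) serve for comparison.

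The series covers mouse tumors that model small cell lung cancer, a neuroendocrine carcinoma. All groups share the genotype Trp53-/-;Rb1-/-;p130-/-;R26mG, that is, loss of the tumor suppressors p53, Rb and p130 together with a reporter allele at the Rosa26 locus. Adenovirus delivered the Cre recombinase. In Ad-CMV-Cre a viral promoter active in many cell types drives it, and in Ad-CGRP-Cre that of CGRP, a neuropeptide made by neuroendocrine cells of the airway. One comparison sets 8 Ad-CMV-Cre libraries with amplification of Nfib (the gene of nuclear factor I/B, a transcription factor) against 7 Ad-CMV-Cre libraries without it. The other sets 7 Ad-CGRP-Cre liver metastases, none of them Nfib-amplified, against 11 Ad-CGRP-Cre lung tumors, of which 1 was Nfib-amplified. Ages were not among the labels. Amplification and tissue cannot be told apart in the Ad-CMV-Cre groups: the amplified libraries are 2 lung tumors, 5 liver metastases and 1 lymph node metastasis, and the others are 7 lung tumors. All 8 amplified libraries carry a label for hyperaccessible chromatin, and 0 of the 7 others do. The submitters' description of 1 of these 7 does not list the table of this comparison, so its place in the fit is uncertain. Libraries of preparation batches 1 and 3 entered on both sides (2 and 6 amplified, 2 and 5 not), while the CGRP liver metastases are all of batch 2 and the lung tumors are 7 of batch 2 and 4 of batch 3. Library titles share codes, so libraries may share animals or tumors, and p-values then measure a spread that may be technical. The tables hold fitted values over groups and no value per library, so depth per library is unknown and values by sample are not analysed here.

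In keratinocytes, the genes of the complex are switched on together as cells leave the basal layer of the epidermis. Loricrin, involucrin and the small proline-rich proteins (Sprr genes) are cross-linked by transglutaminases into the cornified envelope, and the late cornified envelope (Lce) proteins join it later. Filaggrin and its relatives, which carry an S100-type calcium-binding domain fused to long repeats, bundle keratin filaments or line the envelope. S100a10 and S100a11 encode small calcium-binding proteins that bind annexins at membranes and are expressed far beyond the skin.

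In RefSeq (GRCm38.p6), 53 protein-coding genes run from Lor, the gene of loricrin, to S100a10, among them 14 Sprr and 21 Lce genes, and the next 6 protein-coding genes after S100a10 all belong to the Tdpoz family. Of 41 genes listed for the complex, 40 were found by symbol and 29 lay in that run, including all 7 filaggrin-type genes. Of 13 S100 genes listed, 2 lay in it (S100a10 and S100a11), and the cluster that ends with S100a9 lies before Lor with 5 coding genes between. That gene table is of another build than the peaks, so names and order are used and no peak was assigned to a gene. The name of the window came with the rule and was not checked against mm9 gene positions, and the libraries' tissue was not checked against marker genes here.

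Part of the regulatory sequence of the complex is shown by the 250 bases before the start of 4 of its genes, picked as examples. The sequences are from RefSeq (GRCm38.p6), 5′ to 3′ on the strand of the gene. The genes are that of loricrin (chr3:92083143-92083392, minus strand), a small proline-rich gene (chr3:92485882-92486131, minus strand), the filaggrin gene (chr3:93273296-93273545, plus strand) and an S100 gene (chr3:93520246-93520495, plus strand). These positions are not comparable with the mm9 positions of the peaks. Capitals mark TGANTCA, where N is any base, searched on both strands, and TATAAA, the TATA box, searched on the strand of the gene. TGANTCA is a loose form of the site of AP-1, a dimer of Fos and Jun proteins known to drive genes of the complex.
Lor: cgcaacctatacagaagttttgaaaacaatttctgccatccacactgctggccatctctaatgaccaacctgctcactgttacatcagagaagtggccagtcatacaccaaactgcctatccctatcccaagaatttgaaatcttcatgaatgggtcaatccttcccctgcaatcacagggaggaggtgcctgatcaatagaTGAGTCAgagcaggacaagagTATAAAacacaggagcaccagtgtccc
Sprr1a: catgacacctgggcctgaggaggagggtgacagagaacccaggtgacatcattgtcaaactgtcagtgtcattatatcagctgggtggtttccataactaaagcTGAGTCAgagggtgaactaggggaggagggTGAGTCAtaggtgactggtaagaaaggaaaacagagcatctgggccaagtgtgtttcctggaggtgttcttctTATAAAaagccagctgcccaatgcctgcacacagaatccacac
Flg: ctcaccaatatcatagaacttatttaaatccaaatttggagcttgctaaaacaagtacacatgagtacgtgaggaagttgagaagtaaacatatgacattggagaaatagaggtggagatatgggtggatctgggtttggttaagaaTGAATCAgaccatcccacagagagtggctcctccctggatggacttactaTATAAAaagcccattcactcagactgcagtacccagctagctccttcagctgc
S100a11: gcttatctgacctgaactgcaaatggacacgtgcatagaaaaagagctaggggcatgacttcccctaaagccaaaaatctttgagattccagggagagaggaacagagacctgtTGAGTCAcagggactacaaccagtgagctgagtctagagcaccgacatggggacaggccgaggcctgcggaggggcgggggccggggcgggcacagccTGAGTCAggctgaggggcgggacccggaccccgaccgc
Each of the 4 sequences above holds TGANTCA, and all but that of S100a11 hold TATAAA, so they do not stand for the complex. Of 50 promoters of 49 genes from Lor to S100a10, 18 (36.0%) held TGANTCA, against 6.75% of all 32851 promoters of the same length. TATAAA was in 20 of the 50 (40.0%), against 7.59% of all. The half-site of the nuclear factor I family, TTGGC on either strand, was in 15 of the 50, against 41.5% of all. The full palindrome of that family, TTGGC and its reverse complement with 5 bases between, was in 0 of the 50 and in 0.0365% of all. Genes of the Sprr and Lce families are recent copies of each other, so these promoters are not independent, and a match describes letters only.

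With Nfib amplification, most peaks from the lower border of the window to 93401647 were less accessible, and none of the 6 members beyond that point was called. Of the 45 members, 35 (77.8%) were lowered and 0 raised in the authors' deposited table, calling a peak below an adjusted p of 0.05, while 12.2% of all tested peaks were lowered and 34.3% raised. The median log2 fold change of the members was -2.53 in the authors' deposited table, with quartiles of -3.77 and -1.90, which is 5.76-fold lower on a linear scale. The median over all peaks was 0.60, and that over the 347 flanking peaks -0.52. Because these values chose the members, nothing is read from the gap. Of the members, 28 were also lowered in a further test of the authors' deposited table, whose null allows absolute log2 fold changes up to 0.5, which 4.64% of all tested peaks passed as lowered.

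Deep losses were frequent within the stretch, which follows in part from its choice by these same values, so the shares below are a description. A log2 fold change of -3 or lower was found at 17 of the 45 members (37.8%), at 5 of 347 flanking peaks (1.44%) and at 1.06% of all peaks. At -4 or lower lay 7 members (15.6%), 0 flanking peaks and 224 peaks of the whole list (0.196%).

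**Figure D1:**
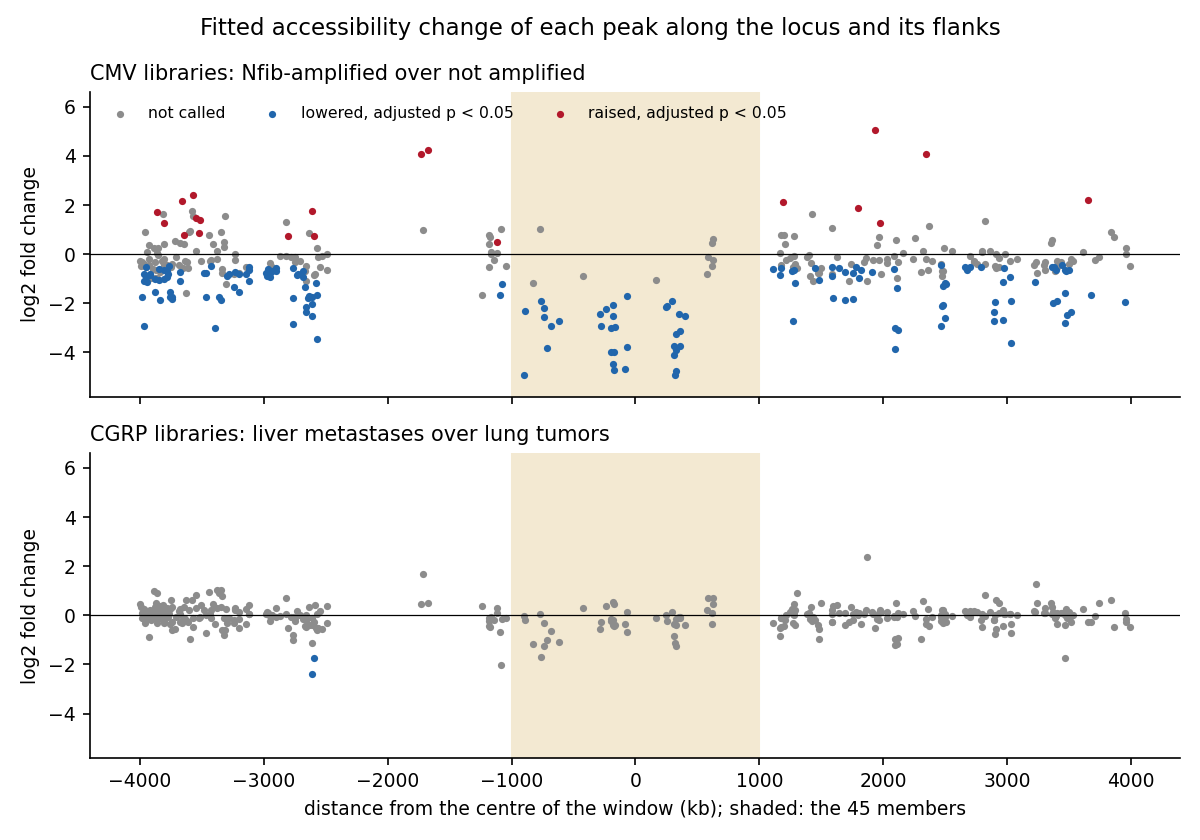
Fitted log2 fold change (y axis) of each peak against its distance in kb from the centre of the window (x axis), for the Nfib comparison in CMV libraries (top) and the liver comparison in CGRP libraries (bottom), with the 45 members shaded and called peaks in colour. In the top panel 35 members lie below 0 as called peaks, and in the bottom panel no member is called.

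The lowered members filled a stretch of 1302.5 kb with little between them that was not lowered. They ran from chr3:92099184-92099684 to chr3:93401147-93401647, and 35 of the 39 members up to there were lowered (89.7%). Consecutive lowered peaks formed runs of 14 members (92711434 to 92934815) and 13 members (93248380 to 93401647). Among 10130 runs of lowered peaks in the merged list, no other was as long as either, and the next longest held 12 peaks. The runs describe the same values that chose the stretch.

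The 5 members with the lowest log2 fold changes lay in different parts of it. The first member, chr3:92099184-92099684, had -4.91 (adjusted p = 6.267e-09, SE 0.75 in the authors' deposited table), a 30.1-fold difference. The next value in the authors' deposited table was -4.90 (SE 0.87) at chr3:93321253-93321753, followed at the next peak by -4.75 (SE 0.72) at chr3:93324148-93324648. In the middle of the stretch, the authors' deposited table gave -4.72 (SE 0.81) at chr3:92830711-92831211 and -4.66 (SE 0.65) at chr3:92918488-92918988. Differences among these 5 are smaller than their SEs.

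Members separated by gaps of over 50 kb, a distance set with the values known, fell into 10 groups. The group of 6 from 92232156 to 92315122 held 5 lowered members, with a median of -2.38 in the authors' deposited table. Its strongest peak, chr3:92289720-92290220, had the highest mean count of all members (154) and was 14.1-fold lower, with -3.82 (SE 0.49, adjusted p = 3.853e-12) on the log2 scale of the authors' deposited table. In the group of 11 from 92711434 to 92835779 every member was lowered, from -4.72 to -2.06 with a median of -2.96 in the authors' deposited table. The 3 members from 92918488 to 92934815 were all lowered as well (median -3.77).

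The largest group lay toward the end of the lowered stretch, with 13 members from 93248380 to 93401647. All were lowered in the authors' deposited table, with values from -4.90 to -1.91 and a median of -3.26. It holds 4 of the 5 members with the highest mean counts. These were chr3:93401147-93401647 with a mean count of 92.8 and a log2 fold change of -2.52 (SE 0.69) in the authors' deposited table, and chr3:93310077-93310577 with 87.0 and -4.11 (SE 0.70). A close pair followed in the authors' deposited table, chr3:93359820-93360320 with 83.6 and -3.73 (SE 0.74), and chr3:93358884-93359384 with 55.2 and -3.13 (SE 0.70). Each of the 5 members with the highest mean counts was thus called lowered. Log2 fold changes of this comparison chose the stretch, and the mean counts are not means of this comparison alone.

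Within the lowered stretch, 4 members were not called. Of these, chr3:92232156-92232656 was the only one above 0, at 1.04 (adjusted p = 0.3445, SE 0.90 in the authors' deposited table). The next member along was lowered. The peak above 0 held a summit of the CMV pool and of no other. The authors' deposited table gave the other three -1.18 (SE 0.82) at chr3:92175812-92176312, -0.90 (SE 0.85) at chr3:92575420-92575920 and -1.04 (SE 0.50, adjusted p = 0.07299) at chr3:93165777-93166277.

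Past the last lowered member came 173.72 kb without a merged peak and then 6 members that were not called, from 93575367 to 93627646. Their log2 fold changes in the authors' deposited table were -0.81 (SE 0.84), -0.12 (SE 0.91), -0.48 (SE 1.04), 0.46 (SE 0.73), 0.61 (SE 0.93) and -0.25 (SE 0.90), in order along the chromosome. Their mean counts ran from 2.03 to 7.62, below the median of 21.2 over all peaks. At such counts the SEs are wide, and the 6 members differ from 0 by less than 1 SE each. Neither a change nor its absence is shown there.

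Losses were larger just inside the lower border of the window than just outside it, and not so at the upper border. The nearest peaks before the lower border had -1.23 (SE 0.35) at chr3:91921761-91922261 and -0.48 (SE 0.44) at chr3:91954524-91955024 in the authors' deposited table. The first of them was itself called lowered (adjusted p = 0.001797, Wald test). The first pair inside had -4.91 and, at chr3:92108220-92108720, -2.32 (SE 0.78), after a gap of 144.16 kb. At the other end, the last pair inside had 0.61 at chr3:93625528-93626028 and -0.25 at chr3:93627146-93627646 in the authors' deposited table. After 486.19 kb without a merged peak, the first pair outside had -0.61 (SE 0.17) at chr3:94113837-94114337 and 0.06 (SE 0.28) at chr3:94167583-94168083 in the authors' deposited table. Lowered peaks thus lie on both sides of the lower border, which the rule set, and the last lowered member lies well before the upper border.

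The flanks were themselves lowered more often than peaks in general, but by less. In the authors' deposited table, 72 of 183 peaks (39.3%) from 89 to 92 Mb were lowered and 14 raised, and 63 of 164 (38.4%) from 94 to 97 Mb were lowered and 6 raised. Their medians were -0.53 and -0.51. In the megabase just before the window, from 91 to 92 Mb, 2 of 17 peaks were lowered and 3 raised, with a median of 0.10.

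Losses at the members deepened with mean count. Of 17 members with a mean count under 10, 8 were lowered (median -1.18), of 18 from 10 to under 30, 17 were (median -2.78), and all 10 with 30 or more were (median -3.78). Over all peaks, medians in the same classes were 1.11, 0.89 and 0.16. Across the 45 members, Spearman's rho between the log2 fold change and the log2 mean count was -0.61, and Pearson's r was -0.62. Over the 35 lowered members they were -0.34 and -0.36, and over all peaks -0.22 and -0.19. Mean counts are identical in both tables, so they are not means of 1 comparison alone, and the measures share libraries and depth.

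**Figure D2:**
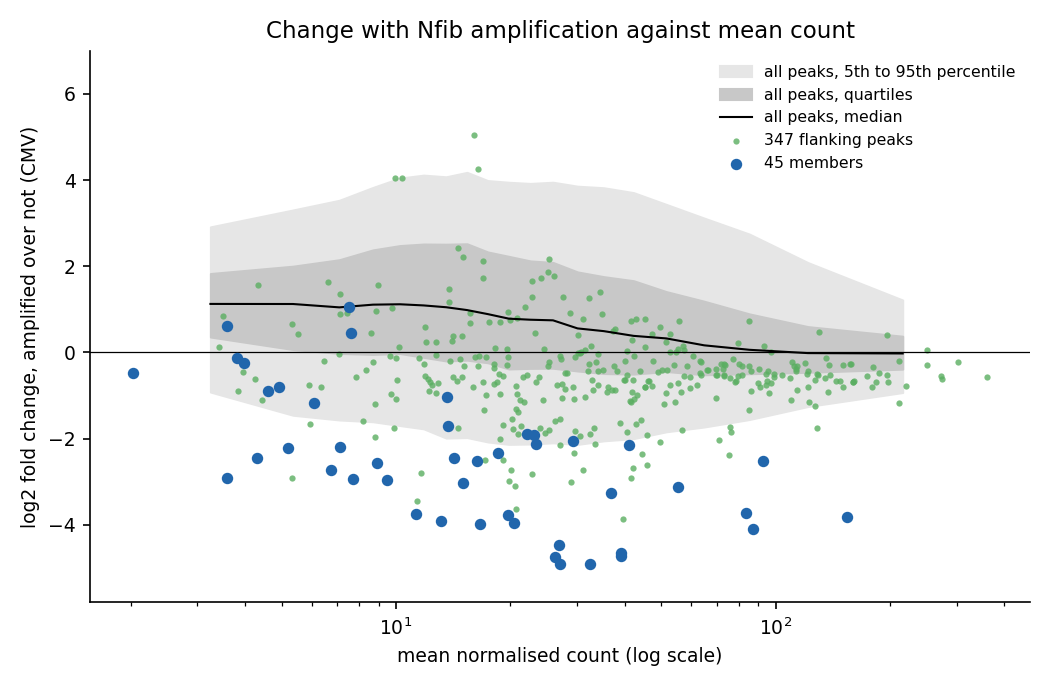
Log2 fold change with Nfib amplification (y axis) against mean normalised count (x axis, log scale) for the 45 members (large points), the 347 flanking peaks (small points) and all peaks (line and bands for the median, quartiles and 5th to 95th percentile in 20 classes of mean count). Of the 45 members, 31 lie below the 5th percentile of all peaks of like mean count, interpolated between classes. The members were chosen by these log2 fold changes.

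The liver comparison in CGRP tumors shares no library with the Nfib comparison, and its values were not used to choose the stretch. It asks whether metastases to the liver differ from lung tumors of the same model. No member passed the test: 0 of the 36 members with an adjusted p were lowered or raised at 0.05 (Wald test of the authors' deposited table, in the layout of DESeq2 results), against a background of 0.779% lowered and 0.0752% raised. The smallest adjusted p among members was 0.2969. Another 9 members had no adjusted p. At an unadjusted p under 0.05, 3 of 45 were lower (6.67%) and 0 higher, where 6.25% of all peaks were lower and 3.37% higher, so the share of lower members is near the background. The test with a null up to 0.5 called 0 members.

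In the CGRP comparison most members lay slightly below 0. The median log2 fold change of the members was -0.22 in the authors' deposited table, with quartiles of -0.42 and 0.06, and 33 of 45 (73.3%) were below 0. Peaks lowered with Nfib amplification anywhere in the genome had a CGRP median of -0.19, with 68.4% below 0. The 35 lowered members lay lower than that, with a median of -0.32 and 85.7% below 0. Their median SE was 0.64, against 0.38 for all lowered peaks. The 10 members not lowered had a median of 0.15, with 3 of 10 below 0. The 6 members past the last lowered one had a median of 0.34, with 1 of 6 below 0. Over all peaks the median was 0.01 and 48.9% were below 0, and over the flanking peaks the median was -0.00 and 50.1% were below 0 (66.7% from 90 to 91 Mb and 64.7% from 91 to 92 Mb). The median SE of the members was 0.67, so a change at a typical member had to exceed about 1.32 on the log2 scale to reach an unadjusted p of 0.05. The corresponding value for flanking peaks was 0.62. Peaks of a stretch are not replicates of a condition, and these shares have no test here.

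The lowest CGRP values were most frequent at the low-coordinate end. A log2 fold change of -1 or lower was found at 7 members (15.6%), of which 5 were among the first 10 members, up to 92382995. The corresponding share was 2.02% of flanking peaks and 6.47% of all peaks. The median SE was 0.67 for members, 0.31 for flanking peaks and 0.52 for all peaks. The part of these unequal SEs in the shares was not tested. Those 5 include members with mean counts of 6.10, 8.90 and 6.74. None of the 7 was called, and the cut at the first 10 members was set with the values known. In the authors' deposited table, the lowest member was chr3:92235447-92235947 at -1.68 (SE 0.71, unadjusted p = 0.01854, adjusted p = 0.339). It was followed by -1.25 (SE 0.82, adjusted p = 0.6696) at chr3:92259005-92259505 and -1.25 (SE 0.59, adjusted p = 0.4291) at chr3:93324148-93324648 in the authors' deposited table. The remaining values of the lowest 5 in the authors' deposited table were -1.15 (SE 0.72) at chr3:92175812-92176312 and -1.11 (SE 0.79) at chr3:93321253-93321753.

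The strongest member, chr3:92289720-92290220, had -1.01 (SE 0.41, unadjusted p = 0.01342, adjusted p = 0.2969) in the authors' deposited table of this comparison, beside -3.82 (SE 0.49) in the Nfib comparison. At the member with the deepest loss in the Nfib comparison, chr3:92099184-92099684, the authors' deposited table gave -0.04 (SE 0.56) for CGRP. The highest CGRP values were 0.69 (SE 0.88) at chr3:93582067-93582567, 0.69 (SE 0.92) at chr3:93625528-93626028 and 0.56 (SE 0.73) at chr3:92819500-92820000 in the authors' deposited table, each within 1 SE of 0. Across the 45 members the log2 fold changes of the comparisons had a Pearson's r of 0.40 and a Spearman's rho of 0.44, and across the 35 lowered members 0.18 and 0.24, near the 0.15 and 0.17 over all peaks. All points share the libraries and the authors' joint scaling, so these are descriptions.

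**Figure D3:**
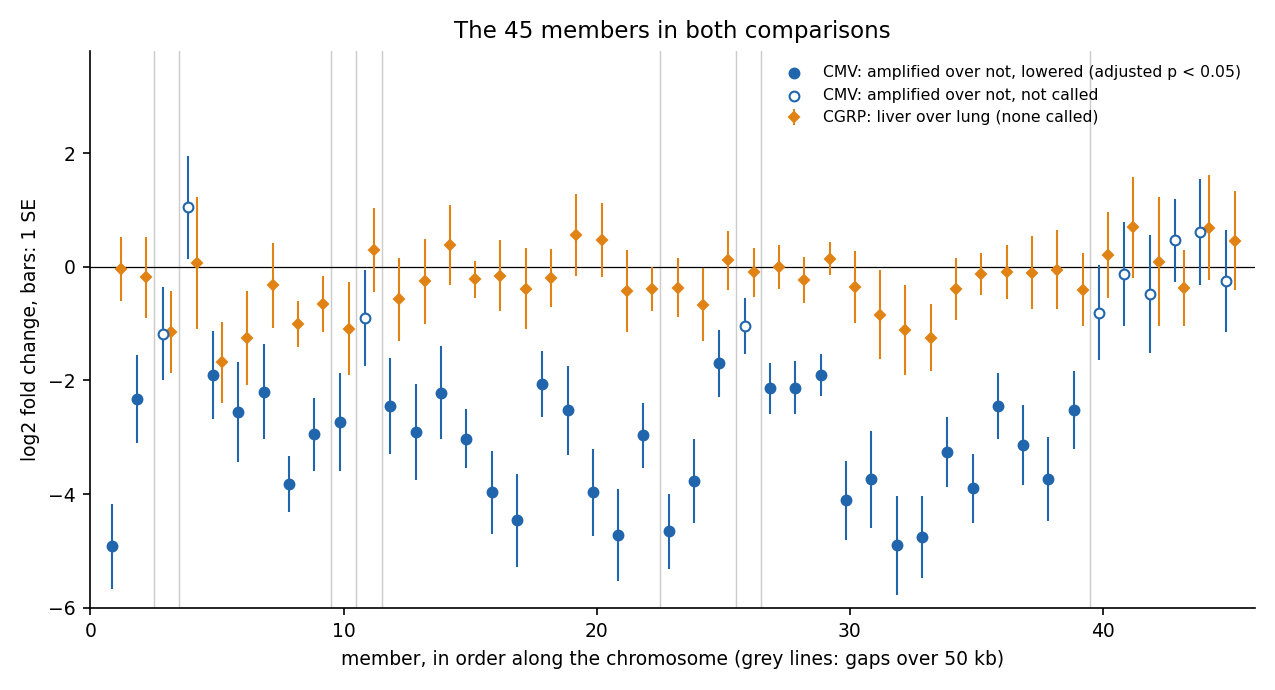
Log2 fold change with 1 SE (y axis) of the 45 members in order along the chromosome (x axis), for the Nfib comparison in CMV libraries (circles, filled where lowered) and the liver comparison in CGRP libraries (diamonds). The CMV values reach -4.91 and the CGRP values lie between -1.68 and 0.69.

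The flanks held the sites called nearest to the stretch in CGRP tumors. These were 2 of 338 flanking peaks with an adjusted p, while 0.779% of all tested peaks were lowered. Both lay from 90 to 91 Mb, and both were lower in liver metastases. They were chr3:90391600-90392100 at -2.38 (SE 0.52, adjusted p = 0.002139) and chr3:90401769-90402269 at -1.75 (adjusted p = 0.01041, SE 0.43 in the authors' deposited table). In the Nfib comparison the same peaks had -2.50 (SE 0.59) and -0.86 (adjusted p = 0.1296, SE 0.48 in the authors' deposited table). They were named after their values were seen. From 94 to 97 Mb, 0 of 159 peaks with an adjusted p were called in CGRP tumors.

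Summits, the positions of highest signal called on merged libraries, show in which pools a site was called at the members. A missing summit is a missing call and does not show closed chromatin. The CGRP pool (14 libraries, none of them in the Nfib comparison) had a summit at 40 of 45 members (88.9%, 95% exact binomial interval 76.0% to 96.3%). Of the members, 17 are centred on a summit of this pool and so hold one by construction. Among the 35 lowered members, 34 (97.1%) held one, a share near the 97.9% of all peaks lowered with Nfib amplification. Flanking peaks held a CGRP summit in 94.8% of cases, and 85575 of the 114043 peaks held one. The median score of the CGRP summits at members was 53.1, at the median percentile 64.6 of that pool's list. The strongest was again chr3:92289720-92290220, with a score of 1050 at percentile 97.9, followed by chr3:93401147-93401647 with 662 (percentile 95.3). These scores are the authors' own, read as −log10 of a q-value from their smallest value, and rank sites within a list only.

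The CMV pool had a summit at 34 members (75.6%, interval 60.5% to 87.1%), and the mixed pool at 41 (91.1%, interval 78.8% to 97.5%). Of the members, 12 are centred on a CMV-pool summit and 16 on a mixed-pool summit, and so hold one by construction. Over all peaks the shares with a summit were 88.6% (CMV) and 89.5% (mixed), and 37.9% and 35.3% are centred on one. A CGRP summit without a CMV summit was found at 8 members (17.8%), 39 flanking peaks (11.2%) and 9.10% of all peaks, and the reverse at 2 members (4.44%), against 22.6% of all peaks. Among all peaks lowered with Nfib amplification, 23.3% held a CGRP summit without a CMV one and 75.2% held a CMV summit. The matching shares of the 35 lowered members were 14.3% and 82.9%. The CMV pool joins 19 libraries, of which 15 carry the submitters' mark for low enrichment and 4 are in the Nfib comparison, and the mixed pool holds 11 libraries of that comparison. The CMV and CGRP pools differ in vector and in preparation batch, which cannot be told apart. Intervals cover counting error only.

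**Figure D4:**
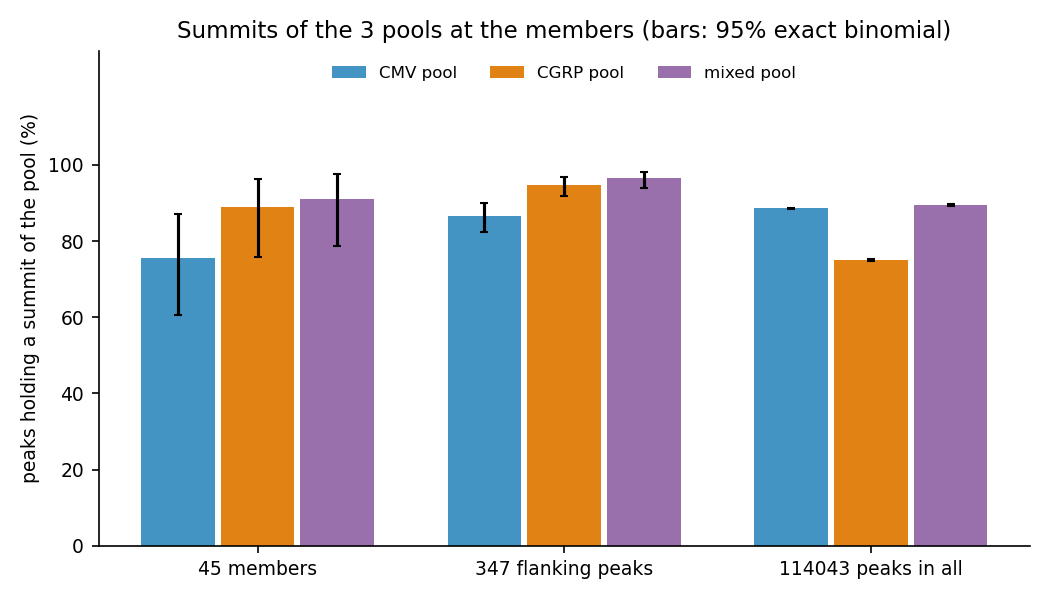
Share of peaks that hold a summit of each pool (y axis, percent) for the 45 members, the 347 flanking peaks and all 114043 peaks (x axis), with 95% exact binomial intervals. At the members the CMV pool stands at 75.6%, the CGRP pool at 88.9% and the mixed pool at 91.1%, with overlapping intervals. Each peak is centred on a summit of a pool and holds that summit by construction.

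The window held fewer summits per Mb than both flanks in every pool. A density over the whole genome was not computed. The CMV pool had 48 summits per Mb from 92 to 94 Mb (exact Poisson 95% interval 38.9 to 58.6), beside 77 from 89 to 92 Mb and 92.3 from 94 to 97 Mb. The CGRP pool had 57.5 per Mb (47.5 to 69.0), beside 88.3 and 125 (112.7 to 138.3). The mixed pool had 44.5 (35.7 to 54.8), beside 91.7 and 112. Summits of the window also scored lower than those of the flanks in the CGRP pool: the median CGRP score was 8.34 within the window and 38.0 and 34.0 in the flanks.

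Many of these summits did not enter the merged list. Of 115 CGRP-pool summits in the window, 40 (34.8%) lay in a merged peak, against 51.1% of the whole list and 67.9% and 41.9% in the flanks. Beyond the last lowered member, 34 CGRP-pool summits were called up to 94 Mb with a median score of 4.09, and 3 of them lay in a merged peak. No source used here gives the filter behind the merged list, and its part in this end of the window was not tested.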

How the data were processed

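ATAC-seq libraries of mouse lung tumors and metastases were grouped by the submitters' labels. Per the submitters' processing notes, build mm9 was used, with MACS2, DESeq2 and Bowtie2 among the tools. No source used here states how reads were trimmed or filtered, or whether they were shifted for the Tn5 cut.

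The deposited lists hold summits of 3 pools of merged libraries and 1 list of 501 bp merged peaks. Their score column was read as −log10 of a q-value from its smallest deposited value, 1.30. Both deposited tables of comparisons give a mean normalised count per peak, a signal averaged over libraries by the authors, and the authors' log2 fold changes. The SE and the Wald score, the p-values and the adjusted p-values are the authors' as well, per the file headers with DESeq2's column names. No source used here names the covariates of the fit. Columns of per-library values number 0, so depth is unknown and no model was fitted here. Adjusted p-values cover all peaks of a table.

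The direction of each comparison was read from the table names and the labels' coding (amplified 1, not 0). Peaks were joined by name. A summit counted as held by a peak within 250 bp of its centre. The counting code was tested on simulated data. Described with values are the 5 members with the lowest and all not lowered in the CMV comparison, the 5 with the highest mean count, the 5 lowest and 3 highest in the CGRP comparison, and the nearest pair on each side of each border. Members, gene lists and rules were chosen with earlier results of these data known. Promoter motifs were searched in RefSeq sequences, leaving out the 50 bases after the start. Figures were drawn with matplotlib 3.10.9. Counts were made in Python 3.11.15 with pandas 2.3.3, numpy 2.4.6 and scipy 1.17.1. Alternatives covered thresholds, a mean count minimum, centring, window borders, summit distance and summit score.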

Additional observations from a re-analysis of the deposited data

How the results depend on the processing

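Of 41 alternatives, 33 left the value within the range counted as the same, 8 moved it and 0 reversed it. Only alternatives of a median could be labelled reversed, so that 0 says nothing of the counts, shares and densities. The tally includes settings that could not change a count, and it does not measure robustness. The count of 35 members lowered with Nfib amplification became 18 with a mean count of at least 20 (all 18 members that strong), 22 from 92 to 93 Mb and 13 from 93 to 94 Mb, each of which tests fewer peaks. With the window widened by 0.5 Mb on both sides, 2 peaks were raised instead of 0, 46 of 90 (51.1%) were lowered, and the median was -0.90. The median of -2.53 became -3.78 with the mean count minimum, and -3.13 when the median of all peaks was set to 0. With summits of a score of at least 5, densities were 25.5 (CMV), 35 (CGRP) and 30 (mixed) per Mb. In the CGRP comparison the count of members lowered or raised was 0 under each alternative, and the median ran from -0.36 to -0.10. The smallest adjusted p among members was 0.2969 (Wald test). The other thresholds, up to 0.1, the mean count minimum and parts of the window therefore could not change these counts.

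No paired analysis was possible because the deposited tables hold fitted values and no column per library. Leaving out a library and fits within a preparation batch could not be run for the same reason. Members with a mean count under 10 (17 of 45) limit what the stretch can show.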
